A study of Mus musculus with 4 samples.

Results

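The heat shock proteins and their co-chaperones are the genes whose array name marks them as an HSP90, HSP70, HSP110, small heat shock or chaperonin gene, as a J protein (Dnaja, Dnajb, Dnajc) or as a BAG protein. Names matching these patterns picked 148 spots, 130 probes and 68 genes out of 27389 genes on the array, and 66 genes were measured. Dnajb13 and Dnajb3 had no probe above background by the filter and have no value. In 7 cases the array carries an older name than RefSeq, such as Hspca for Hsp90aa1 and Hspa9a for Hspa9. A pair of genes, Tmem132a (Hspa5bp1 on the array) and Tmem208 (Hspc171), came in through old names and are not chaperones.

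The samples were neurospheres, floating cultures grown from neural stem cells of mice of a crossed 129/Sv and C57BL/6 background and kept without serum in medium with EGF. Mutants of Dll1, a ligand of Notch receptors, came as a pair of lines named Dll1-3 and Dll1-5, and the controls were wild type. The labels do not describe the allele, the sex or the age of the animals. Each of 4 arrays set mutant against wild-type RNA, and the second array of a line exchanged the dyes of the first. The design text states 2 biological replicates, each a pool of 3 and each dye-swapped, without saying how they map to the lines. With 4 arrays in all this was read as 1 replicate a line, so that n = 2 where both enter; on another reading the n, the SDs and the p-values below would differ. A ratio is always mutant over wild type on the log2 scale, listed in the order Dll1-3 replicate 1, Dll1-3 replicate 2, Dll1-5 replicate 1 and Dll1-5 replicate 2, and the SD is that between the line means.

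Chaperones bind unfolded or partly folded proteins and, in most families, use ATP to release them for another round of folding. J proteins deliver clients to HSP70 and start its ATP hydrolysis, while BAG and HSP110 proteins let HSP70 exchange its nucleotide. HSP90 takes over clients such as kinases and receptors, HSP60 with HSP10 encloses clients in the mitochondrial matrix, and small heat shock proteins hold unfolded clients without ATP. Heat shock factor HSF1 binds repeats of a short unit, the heat shock element, in the promoters of many of these genes.

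Promoter windows of RefSeq (GRCm38.p6, from 250 bases before to 50 after a gene's start) were found for 54 of the 68 genes. The letters GAANNTTCNNGAA, a heat shock element of 3 units, were searched on both strands and lay in 0.603% of all 32851 windows. Counted by gene, 0.662% of 27025 genes had a window with it, and 4 of the 54 member genes did (7.41%): Hspd1, Hspe1, Dnajb6 and Hsph1. The stretches of 30 bases below show these elements first, because their genes had means above 0. Then follows the shorter match GAANNTTC, in those of its holders with the lowest means. Hspa2 and Dnajb9, with means of -1.92 and -1.57, were not among the genes found to hold it. Capitals mark the match, and in Hspe1 they join overlapping matches of both strands and so run longer than the letters searched. Each stretch is written in the gene's direction, and Hspd1 shares the stretch of Hspe1 on the opposite strand.
Hspe1: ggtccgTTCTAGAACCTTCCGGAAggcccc
Dnajb6: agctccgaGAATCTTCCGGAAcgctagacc
Hsph1: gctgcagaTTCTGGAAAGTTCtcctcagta
Hspb8: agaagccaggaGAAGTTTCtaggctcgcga
Hspb3: ctccccgaatgGAATTTTCaggcagaggga
Hspa1a: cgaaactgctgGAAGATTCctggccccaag
Bag3: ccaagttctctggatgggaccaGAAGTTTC

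The stretches lie at chr1:55088053-55088082 on the plus strand (Hspe1), chr5:29735844-29735873 on the plus strand (Dnajb6), chr5:149636279-149636308 on the minus strand (Hsph1) and chr5:116422844-116422873 on the minus strand (Hspb8). Those of Hspb3 and Hspa1a lie at chr13:113663882-113663911 and chr17:34972242-34972271, both on the minus strand, and that of Bag3 at chr7:128523603-128523632 on the plus strand. Counted from the gene's start, the match ends at -72 in Hspe1 and at -97 in Hspa1a, and it lies just after the start in Hspb8 and Bag3. The shorter match GAANNTTC, which overlaps the longer one, was in 7.86% of all windows, and in windows of 9.04% of all genes and 13 of 54 member genes (24.1%). By the probe representing each gene, 7 of these 13 genes had a mean above 0 and 6 below 0. The 7 included Hspd1, Hspe1, Dnajb6 and Hsph1, which hold the longer element. The others above 0 were Dnaja4 (0.29), Hspb6 (0.24) and Dnaja1 (0.18). For Dnaja1 the sign rests on 1 probe, as its other probes averaged -0.74 and -0.64. The reverse arrangement TTCNNGAA was in 8.52% of windows, and in windows of 9.6% of all genes and 6 member genes (11.1%). A match is a description of the letters and not of binding.

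The Dll1 transcript was checked first. Its log2 ratio was -3.31 and -3.22 on the arrays of Dll1-3 and -1.65 and -1.64 on those of Dll1-5. All 4 values were below 0, and those of the 2 lines did not overlap. The mean was -2.46 (SD 1.15, n = 2 lines), with a limma adjusted p of 0.123. The sources used here do not give where the probe lies relative to the mutation.

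No member gene passed an adjusted p of 0.05 in limma's test over both lines, and 0% of all 23106 genes did. With the 4 arrays as separate samples, 25 of the 66 (37.9%) passed it, beside 33.7% of all genes. At an unadjusted p under 0.05, 12 of the 66 member genes (18.2%) were higher and 9 (13.6%) lower, against 12% and 15.5% of all genes. The ratio was above 0 on all 4 arrays for 19 member genes (28.8%, all genes 24.1%) and below 0 for 15 (22.7%, all genes 26%). It was at least 2-fold higher on all 4 arrays for 1 gene, Hsp90aa1 (1.52%, all genes 1.69%), and at least 2-fold lower for 4, Hspb8, Hspa2, Hspa1a and Dnajb9 (6.06%, all genes 2.75%). The median of the member genes was 0.05 and that of all genes 0.01, while single members ranged from -2.50 to 1.41. The median of the family thus lay near that of all genes, with single members far to either side.

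**Figure D1:**
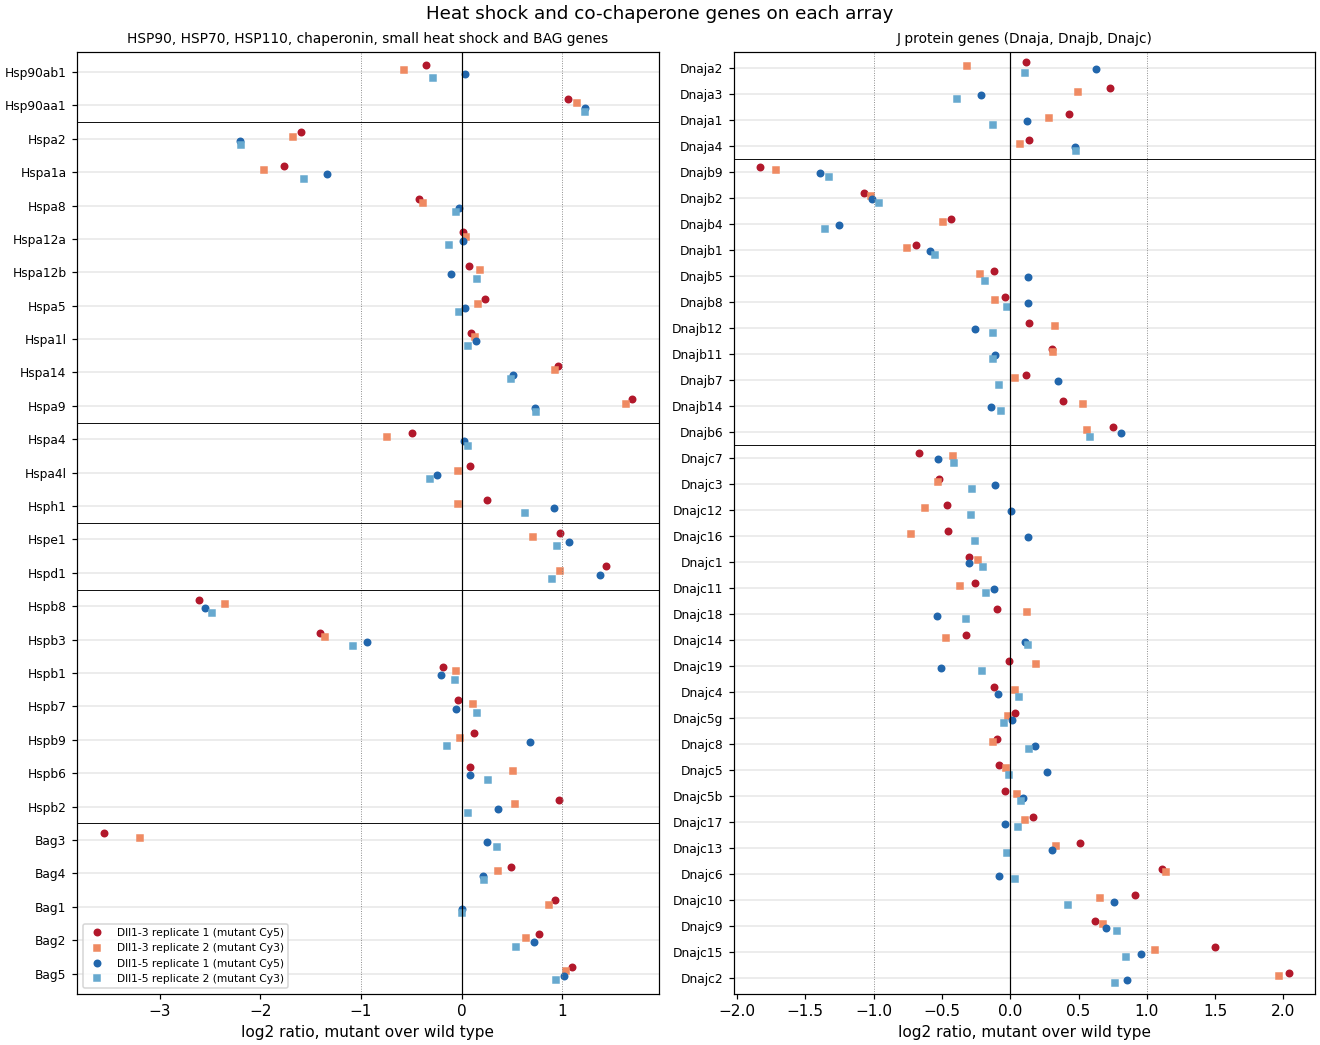
Log2 ratio of mutant over wild type (x axis) of 64 chaperone and co-chaperone genes on each of the 4 arrays, grouped by family and ordered by mean. Circles are arrays with mutant RNA in Cy5 and squares those with the dyes swapped, in red for Dll1-3 and blue for Dll1-5, and dotted lines mark 2-fold. Hspb8, Hspa2, Hspa1a and Dnajb9 lie left of the dotted line on every array, Hsp90aa1 lies right of it, and Bag3 splits by line.

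Among the small heat shock proteins, 2 of 7 measured genes were lower at an unadjusted p under 0.05, Hspb8 and Hspb3 (28.6%, all genes 15.5%). None was higher (all genes 12%). Hspb8 partners BAG3 in delivering misfolded proteins to autophagy. Its ratio was -2.62 and -2.35 on the arrays of Dll1-3 and -2.55 and -2.48 on those of Dll1-5. The values of Dll1-5 lay within the range of those of Dll1-3, and in Dll1-3, where the mutant signal was well above background on both arrays, the level was 5.6-fold lower than wild type. The mean was -2.50 (SD 0.02, n = 2 lines), the lowest of all 66 member genes, with a limma adjusted p of 0.0755. The wild-type channel read 8.66, 8.86, 8.60 and 8.84 on the normalised log2 intensity scale, and the mutant channel 6.04, 6.51, 6.05 and 6.36. The mutant signal was well above background on 3 of 4 arrays, only 1 of them of Dll1-5, so no fold is given for that line. With the smaller background offset of 10 the mean was -3.56 and limma's adjusted p 0.0318, so both the size and the call of this gene rest on the background correction. In bulk RNA, fewer cells of a type and less RNA per cell cannot be told apart, here and for each gene that follows.

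Hspb3, a small heat shock protein known from muscle, read -1.41 and -1.35 in Dll1-3 and -0.95 and -1.08 in Dll1-5. All arrays were below 0, and the values of Dll1-3 were the lower ones. The mean was -1.20 (SD 0.26, n = 2 lines; adjusted p by limma 0.0788), and with the scanner software's own ratios it was -2.56. Hspb2 read 0.97, 0.53, 0.36 and 0.06, and Hspb6, also called HSP20, read 0.09, 0.51, 0.08 and 0.26. Both were above 0 on every array, with limma adjusted p of 0.253 and 0.239. Hspb1, the widely expressed HSP27, lay between -0.21 and -0.05 by its representing probe. A second Hspb1 probe read 0.04, 0.19, -0.13 and 0.10. The array files place this second probe on chromosome 13 and RefSeq places the gene on chromosome 5. The related alpha B crystallin gene Cryab, outside the name rule, was below 0 on all 4 arrays, with a mean of -0.95 (SD 0.31, n = 2 lines; adjusted p by limma 0.0987).

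The HSP70 genes lay on both sides of 0. Of 9 measured, 2 were lower at an unadjusted p under 0.05, Hspa1a and Hspa2 (22.2%, all genes 15.5%). As many were higher, Hspa9 and Hspa14 (22.2%, all genes 12%). Hspa1a, the stress-inducible cytosolic HSP70, read -1.77 and -1.97 in Dll1-3 and -1.33 and -1.56 in Dll1-5. Every array was below 0, and both values of Dll1-3 lay below those of Dll1-5. The mean was -1.66 (SD 0.29, n = 2 lines; adjusted p by limma 0.0755), a 3.16-fold difference. The channel levels were 8.24, 8.61, 8.31 and 8.63 in wild type and 6.47, 6.65, 6.97 and 7.06 in the mutants.

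The 4 probes for Hspa1a were below 0 on all arrays but differed in size. A probe that shares 30 bases with the one above read -1.73, -1.47, -1.24 and -1.20. Its mutant signal was not well above background in Dll1-3, where the transcript was at least 3.03-fold lower by this probe. The other 2 probes, which do not overlap them, read -0.68, -0.37, -0.40 and -0.15, and -0.20, -0.26, -0.26 and -0.09. So the direction was shared by all 4 probes, while the size was not, and the mean of all probes was -0.92. Hspa1b, a near-identical neighbour, is not named on the array, so signal from it cannot be separated from that of Hspa1a.

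Hspa2, an HSP70 best known from the testis, read -1.60 and -1.68 in Dll1-3 and -2.21 and -2.19 in Dll1-5. Its lowest values were thus in Dll1-5, unlike those of Hspa1a. The mean was -1.92 (SD 0.40, n = 2 lines; adjusted p by limma 0.076), and its second probe averaged -1.27. Hspa9, the HSP70 of the mitochondrial matrix, read 1.70 and 1.63 in Dll1-3 and 0.73 and 0.74 in Dll1-5. Its second probe read 1.76, 1.92, 0.86 and 0.87, so both probes were above 0 on every array and higher in Dll1-3. The mean over lines was 1.20 (SD 0.66, n = 2 lines; adjusted p by limma 0.148).

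Hspa14 works at the ribosome with the J protein Dnajc2. It read 0.96 and 0.93 in Dll1-3 and 0.51 and 0.49 in Dll1-5, with a mean of 0.72 (SD 0.31, n = 2 lines; adjusted p by limma 0.129). Dnajc2 read 2.04 and 1.97 in Dll1-3 and 0.85 and 0.77 in Dll1-5. Its second probe read 1.32, 1.37, 0.80 and 0.78. The mean of Dnajc2, 1.41 (SD 0.84, n = 2 lines; adjusted p by limma 0.164), was the highest of the member genes. Both partners were higher in both lines, and more so in Dll1-3.

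Hspa8, the constitutive cytosolic HSP70, read -0.42, -0.38, -0.02 and -0.06, and its mutant channel was saturated on 1 array. A second Hspa8 probe read -0.21, 0.13, -0.09 and 0.31. The array files place the Hspa8 probes on chromosome 5 and RefSeq places the gene on chromosome 9. Hspa5, the HSP70 of the endoplasmic reticulum, read 0.24, 0.17, 0.04 and -0.03. Hspa5 and Dnajc3 were the only members whose windows held the ER stress element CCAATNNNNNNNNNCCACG (0.119% of all windows). These stretches are given for that reason, at chr2:34772020-34772049 and chr14:118937822-118937851, both on the plus strand.
Hspa5: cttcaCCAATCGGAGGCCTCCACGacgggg
Dnajc3: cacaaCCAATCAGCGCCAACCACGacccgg

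Dnajc3, an ER J protein, averaged -0.36 (SD 0.23, n = 2 lines; adjusted p by limma 0.231) by its representing probe. Its other probes averaged -0.44, -0.21 and 0.17, so they did not share 1 sign. The 3 HSP110 genes had no call at any of these thresholds, and Hspa4 had probes that disagreed. The probe representing Hspa4 read -0.49, -0.74, 0.03 and 0.07, and another read 1.10, 0.86, 1.09 and 0.91. The mean of all its probes was 0.28, so no direction is given for Hspa4. Hsph1 read 0.25 and -0.03 in Dll1-3 and 0.92 and 0.63 in Dll1-5, with both Dll1-5 values above those of Dll1-3.

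Hsp90aa1 and the mitochondrial chaperonin genes were higher than wild type on every array. Hsp90aa1, the inducible cytosolic HSP90, read 1.06 and 1.15 in Dll1-3 and 1.22 and 1.23 in Dll1-5. All 4 values exceeded 2-fold, and the mean was 1.17 (SD 0.09, n = 2 lines; adjusted p by limma 0.0755). Its channel level was between 13.1 and 14.3 on the log2 intensity scale, with every mutant value above every wild-type value. Hsp90ab1, the constitutive HSP90, read -0.35, -0.58, 0.03 and -0.29. The ratio of Hsp90ab1 was thus below that of Hsp90aa1 on every array.

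Hspd1 (HSP60) read 1.44 and 0.98 in Dll1-3 and 1.38 and 0.90 in Dll1-5, and its second probe 1.49, 1.42, 1.28 and 1.19. For the first probe both arrays with mutant RNA in Cy5 were higher than both with the dyes swapped. Its partner Hspe1 (HSP10) read 0.98 and 0.71 in Dll1-3 and 1.07 and 0.95 in Dll1-5. The means were 1.17 (SD 0.05, n = 2 lines; adjusted p by limma 0.0755) and 0.93 (SD 0.12, n = 2 lines; adjusted p by limma 0.0761). These genes stand head to head on chromosome 1 and share the heat shock element printed above. Among related genes outside the name rule were Hsp90b1, the HSP90 of the endoplasmic reticulum (mean 0.19), Hspa13 (-0.20) and Trap1, the mitochondrial HSP90 (0.84 in Dll1-3 and -0.20 in Dll1-5).

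**Figure D2:**
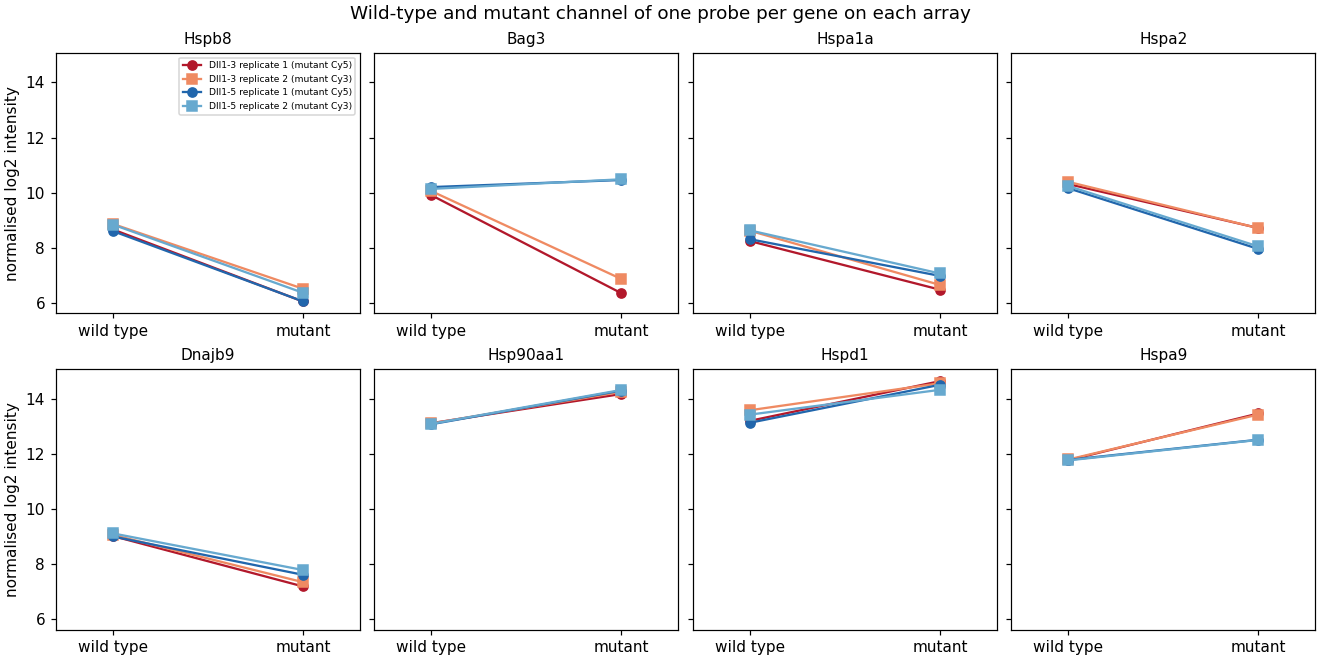
Normalised log2 intensity (y axis) of the wild-type and mutant channel for the probe representing 8 genes, with a line joining the channels of each array. Hspb8, Hspa1a, Hspa2 and Dnajb9 slope down and Hsp90aa1, Hspd1 and Hspa9 slope up on all 4 arrays, while Bag3 slopes down on the arrays of Dll1-3 alone, from 9.90 to 6.34 and from 10.05 to 6.86.

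Among the J proteins, those of type A showed no gene past an unadjusted p of 0.05 in either direction. For Dnaja1 that rests on the brightest probe, which averaged 0.18. Its other probes averaged -0.74 and -0.64 and were below 0 on every array, so no direction is given for Dnaja1. Dnaja4 was above 0 on all 4 arrays (0.14, 0.07, 0.48 and 0.48; limma adjusted p 0.33). Of 11 measured type B genes 1 was higher at an unadjusted p under 0.05, Dnajb6 (9.09%, all genes 12%). Another 3 were lower, Dnajb9, Dnajb2 and Dnajb1 (27.3%, all genes 15.5%). Dnajb9, a J protein of the endoplasmic reticulum, read -1.83 and -1.72 in Dll1-3 and -1.39 and -1.33 in Dll1-5. Its mean was -1.57 (SD 0.29, n = 2 lines; adjusted p by limma 0.0755), and its other probes averaged -0.96 and -0.44, again below 0.

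Dnajb2, a J protein enriched in neurons, read -1.07 and -1.02 in Dll1-3 and -1.02 and -0.96 in Dll1-5. The 4 arrays were within a narrow range, with a mean of -1.02 (SD 0.04, n = 2 lines; adjusted p by limma 0.0755). Dnajb6, which holds back aggregation of polyglutamine proteins, read 0.75, 0.56, 0.81 and 0.58 (mean 0.68, SD 0.03, n = 2 lines; adjusted p by limma 0.0788). Of its other probes, 1 averaged 0.63. The other read 0.72 and 0.30 in Dll1-3 and -0.05 and -0.32 in Dll1-5, so it was not above 0 in both lines. Dnajb4, a cytosolic HSP40, read -0.43 and -0.49 in Dll1-3 and -1.26 and -1.36 in Dll1-5, but another of its probes read 0.27, 0.44, 0.92 and 1.27. The probes of Dnajb4 thus differed most in Dll1-5, and the mean of all of them was -0.18. Dnajb1, the classical HSP40, averaged -0.65 (limma adjusted p 0.0864), with a second probe at -0.09.

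**Figure D3:**
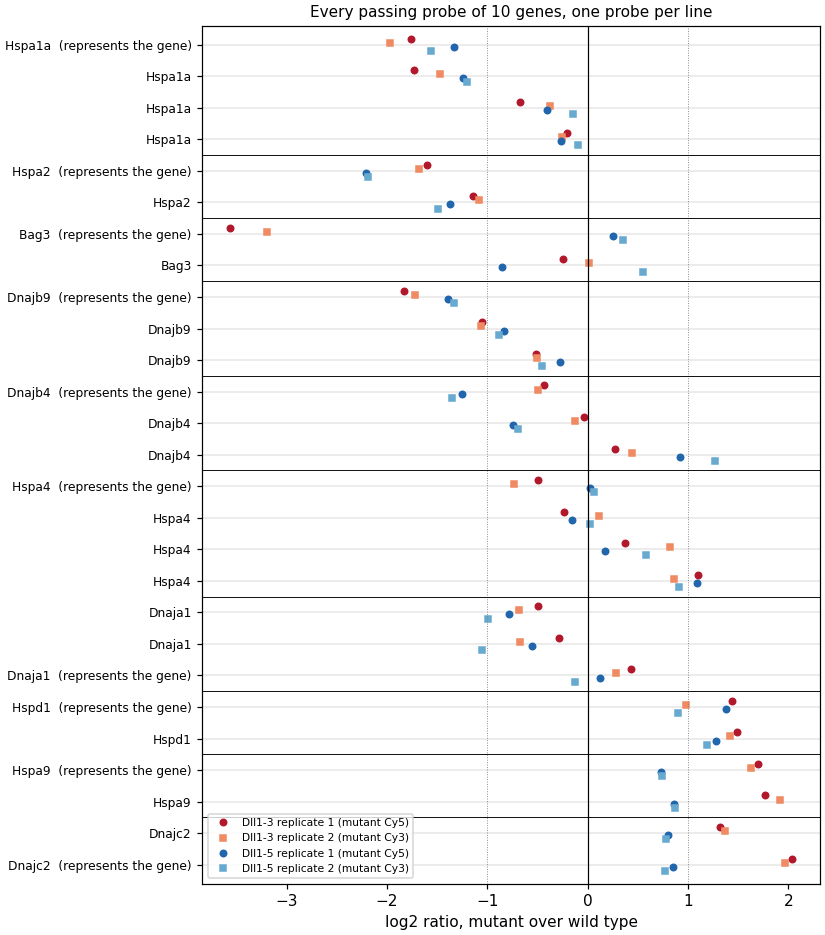
Log2 ratio of mutant over wild type (x axis) of every passing probe of 10 genes on each array, with colours for the lines and shapes for the dye orientation. Probes of Hspa1a, Hspa2 and Dnajb9 lie left of 0 and those of Hspd1, Hspa9 and Dnajc2 right of it, while the probes of Bag3, Dnajb4, Hspa4 and Dnaja1 differ in pattern or sign.

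Of 21 type C genes 4 were higher at an unadjusted p under 0.05, Dnajc2, Dnajc15, Dnajc9 and Dnajc10 (19.0%, all genes 12%). Only 1 was lower, Dnajc7 (4.76%, all genes 15.5%). Dnajc15, a J protein of the mitochondrial inner membrane, read 1.50 and 1.06 in Dll1-3 and 0.96 and 0.84 in Dll1-5. Both values of Dll1-3 were above those of Dll1-5, and the mean was 1.09 (SD 0.27, n = 2 lines; adjusted p by limma 0.0818). Dnajc9, a nuclear J protein that also binds histones, read 0.62, 0.68, 0.70 and 0.78, and its second probe averaged 0.71 beside 0.70 for the first. Dnajc10, a disulfide reductase of the endoplasmic reticulum, read 0.91, 0.66, 0.76 and 0.42, and its 4 probes averaged between 0.34 and 0.69. Dnajc7, which binds both HSP70 and HSP90, averaged -0.51 (SD 0.05, n = 2 lines; adjusted p by limma 0.0939). Dnajc7 and Dnajb1 are named here after their values were seen, as are Hspb1, Hspa5, Hspa8, Hsph1, Dnajc3, Dnaja1 and Hsp90ab1.

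Of the 5 BAG genes under the name rule, 4 were above 0 on all 4 arrays (80%, all genes 24.1%). Bag1 was so only barely in Dll1-5. Of the same 5, Bag2 and Bag5 were higher at an unadjusted p under 0.05 (40%, all genes 12%). Bag6, outside the name rule and named after its values were seen, read -0.04, -0.05, 0.06 and 0.09. Bag5, which carries several BAG domains, read 1.10 and 1.04 in Dll1-3 and 1.01 and 0.94 in Dll1-5. The mean was 1.02 (SD 0.07, n = 2 lines; adjusted p by limma 0.0755). Bag2, an inhibitor of the ubiquitin ligase CHIP, read 0.77, 0.64, 0.72 and 0.54 (limma adjusted p 0.0789). Bag1, which links HSP70 to the proteasome, read 0.93 and 0.87 in Dll1-3 and 0.01 and 0.01 in Dll1-5. Bag4 read 0.49, 0.36, 0.22 and 0.22, with a limma adjusted p of 0.197.

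Bag3 was the member with the largest difference between the lines. BAG3 joins HSP70 and HSPB8 in the removal of damaged proteins. It read -3.56 and -3.19 in Dll1-3 and 0.26 and 0.35 in Dll1-5. The lines did not overlap, and Dll1-3 was 10.4-fold below wild type while Dll1-5 was 1.23-fold above it. The wild-type channel was between 9.90 and 10.2 on all 4 arrays, so the split lay in the mutant channel (6.34 and 6.86 in Dll1-3, 10.46 and 10.48 in Dll1-5). The array files place this probe at chr7:122596284-122596343 in a build they do not name, and a second Bag3 probe on the same chromosome. The second probe did not show the split: it read -0.24 and 0.01 in Dll1-3 and -0.85 and 0.55 in Dll1-5. Over both lines the first probe averaged -1.54 (SD 2.60, n = 2 lines; adjusted p by limma 0.499). Hspb8, the partner of BAG3, was lower than wild type on all 4 arrays.

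Single lines had 1 replicate and no test. In Dll1-3, 6 member genes were at least 2-fold higher on both arrays (9.09%, all genes 4.46%) and 7 at least 2-fold lower (10.6%, all genes 6.1%). The higher ones were Dnajc2, Hspa9, Dnajc15, Dnajc6, Hsp90aa1 and Bag5, and the lower ones Bag3, Hspb8, Hspa1a, Dnajb9, Hspa2, Hspb3 and Dnajb2. In Dll1-5 only Hsp90aa1 was at least 2-fold higher on both arrays (1.52%, all genes 3.01%), and 5 genes were lower (7.58%, all genes 3.69%): Hspb8, Hspa2, Hspa1a, Dnajb9 and Dnajb4. The lines may share wild-type RNA, so no correlation between them is given.

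**Figure D4:**
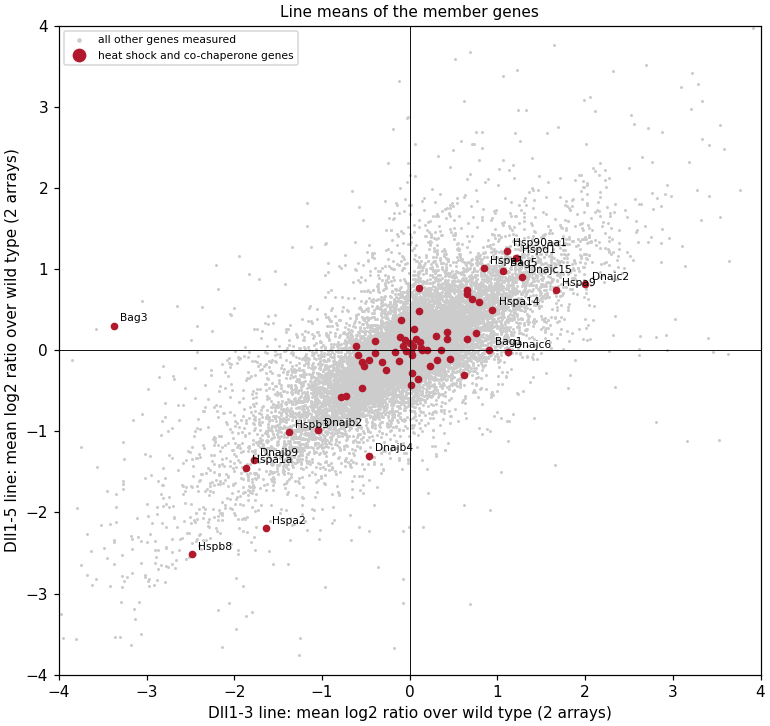
Mean log2 ratio over wild type in Dll1-3 (x axis) and Dll1-5 (y axis), each over 2 dye-swapped arrays, for the 66 member genes (red) and all other measured genes (grey; points beyond the axes are not drawn). Hspb8, Hspa2, Hspa1a and Dnajb9 lie low in both lines, Hsp90aa1 and Hspd1 high in both, and Bag3 lies apart from the other member genes, at the left.

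Between the lines, 3 member genes differed with both arrays of one line above both of the other and means at least 2-fold apart. Bag3 was higher in Dll1-5 (1 of 66 genes or 1.52%, all genes 2.76%). Dnajc2 and Dnajc6 were higher in Dll1-3 (3.03%, all genes 1.66%). Dnajc6, the clathrin-uncoating auxilin of neurons, read 1.11 and 1.14 in Dll1-3 and -0.08 and 0.03 in Dll1-5. Of the member genes, 8 had opposite signs in the lines on every array (12.1%, all genes 10%), and Bag3 was the 1 of these at least 2-fold apart. When the 4 arrays were treated as separate samples, 15 member genes differed between the lines (22.7%, all genes 18.2%), and Bag3 had a limma adjusted p of 0.00095. Such a test takes the dye-swapped arrays of a line as independent.

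Other genes of the folding machinery came from lists, none of which held a member. No gene of these lists passed an adjusted p of 0.05. The list counts below are at an unadjusted p under 0.05, where 12% of all genes were higher and 15.5% lower. Of 24 cofactors of HSP90 and HSP70, 9 had an unadjusted p under 0.05 and were higher, and 1 was lower (median 0.23). Ahsa1, the activator of the HSP90 ATPase, read 1.02, 1.27, 0.75 and 1.05, and Tomm70a, a mitochondrial import receptor for HSP90 and HSP70, averaged 1.20. Ttc4 averaged -0.93. Of 15 subunits of the cytosolic chaperonin and prefoldin, 7 were higher and 1 lower (median 0.37), among them Pfdn1 at 0.94, Pfdn4 at 0.91 and Cct6a at 0.49. Folding factors and proteases of the mitochondria had 3 of 11 higher, the import receptor Tomm20 at 1.11, the protease Yme1l1 at 0.65 and the nucleotide exchange factor Grpel1 at 0.36, and 1 lower (median 0.32). Grpel2 averaged 0.57 and was not among them, with 1.02 in Dll1-3 and 0.13 in Dll1-5, and Grpel1 is named after its value was seen.

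In the endoplasmic reticulum, 4 of 19 folding genes were higher and 1 lower (median -0.04), beside 12% and 15.5% of all genes. Ero1a, the oxidase that drives disulfide formation, read 1.94, 1.81, 1.54 and 1.53, at least 2-fold on every array. Serpinh1, the collagen chaperone HSP47, read 0.79 and 0.94 in Dll1-3 and 2.03 and 2.10 in Dll1-5, and Hyou1 averaged 0.83. Of 5 heat shock factor genes 1 was lower, Hsbp1, an inhibitor of HSF1, with a mean of -1.28 (limma adjusted p 0.102). A mixed list of 13 genes held alpha crystallins, genes linked to HSF1, and immediate early and general stress genes. None was higher and 5 were lower (median -0.14), a count that is not a reading of HSF1 activity. Fos and Egr1, immediate early genes among the 5, averaged -2.32 and -1.57, and Cryab is given above.

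Markers of cell types were read beside these values. All 6 markers of neural progenitors were well above background in wild type and mutants, and their ratios ranged from -2.34 to 0.09 (median -0.58). Sox9 averaged -2.34, Sox2 -1.46 and Nes -0.71. The 7 astrocyte markers had a median of -1.20 and ranged from -3.75 (Apoe) to 0.08. The 6 neuron markers had a median of -1.06, led by Map2 at -1.99, and the 6 oligodendrocyte markers had one of -0.35. The 4 measured microglia and blood markers lay between -0.04 and 0.07, and the 5 endothelial and mural ones between -0.82 (Acta2) and 0.04. Only 2 of these 4 and 3 of these 5 were well above background on all 4 arrays in wild type, and as many in mutants. Ratios near 0 of the dim ones therefore do not show an unchanged level. At an unadjusted p under 0.05, 4 of 7 astrocyte, 4 of 6 neuron and 3 of 6 progenitor markers were lower, beside 15.5% of all genes. None of these markers passed the adjusted threshold. Aqp4 (0.08), Rbfox3 (0.08), Stmn2 (0.00) and Prom1 (0.09) were not lower, and Rbfox3 and Prom1 were above 0 on every array. The part of these cell types in the values of the member genes was not tested.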

How the data were processed

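Total RNA of 2 mutant lines and wild type was measured on 4 arrays of 2 colours. The authors deposited intensity values from Agilent Feature Extraction 8.1.1.1, per the submitters' processing notes, and the scanner software's log10 ratio, per the file headers. Their series table was log10 wild type over mutant (r with mutant over wild type from -0.962 to -0.954). Its centring is unknown (column medians -0.03, 0.01, -0.02 and 0.01).

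Mean signals were corrected with normexp (offset 50, which compresses dim genes) and loess (span 0.3) in limma 3.58.1 under R 4.3.3, giving log2 ratios. Control spots and outliers were dropped, while saturated spots stayed. A probe passed if either RNA was well above background on both of a line's arrays; per array and channel, 80.0% to 82.1% of probes were above background. The brightest probe stood for its gene, and names came from RefSeq (GRCm38.p6) or, for 5521 genes, the file. A lower bound sets the brighter mean against the higher of the dim signal and the lowest signal well above background, after loess and Aquantile, and is open to dye bias.

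Dye-swapped arrays were averaged per line. limma (lmFit, eBayes, 1 residual and 1.64 prior degrees of freedom) tested 23106 genes against 0 over the line means, adjusted by Benjamini-Hochberg; the fit was tested on simulated data. The design text states 2 biological replicates of pooled RNA; that each line is 1 of them is a reading it does not settle, and the sources used here do not say whether wild-type RNA was shared. P-values measure only the spread between these samples, which leaves out wild-type pools. Replicate numbers mark dye orientation: same-numbered arrays' deviations from their line means correlated at 0.70 over genes.

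Genes named were up to 4 per family with the largest mean among those of 1 sign on all arrays, up to 5 per line and for the line difference past 2-fold, those whose probes disagreed in sign by at least 1, and up to 3 per list. Some genes the rule picks are not reported here. The members and lists were chosen with earlier results of these data known. Alternatives covered background, source of ratios, normalisation, filters, probes, arrays left out, unit of replication and sex chromosomes.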

Additional observations from a re-analysis of the deposited data

Results flagged for a closer look

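Bag3 differed between the lines by 3.68 on the log2 scale (Dll1-5 minus Dll1-3), with both arrays of Dll1-3 below 0 and both of Dll1-5 above 0. With 1 replicate a line the difference was not tested in the main analysis, and with the 4 arrays as samples limma's adjusted p was 0.00095. The second Bag3 probe averaged -0.11 in Dll1-3 and -0.15 in Dll1-5 and did not show it.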

How the results depend on the processing

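Signs held in 484 of 485 values of the 27 named genes over 18 alternatives. The exception was Hspa4, 0.28 with the mean of all passing probes. Much of this was fixed in advance. Most of these genes were picked for 1 sign on all arrays, so leaving out 1 array could not turn their mean. Aquantile, the unit of replication and leaving out the sex chromosomes leave the ratios nearly unchanged. The 0 genes past an adjusted p of 0.05 became 7 with an offset of 10 (10.6%, all genes 4.3%) and 1 with the scanner ratios (1.52%, all genes 1.45%). They became 25 with the 4 arrays as samples (37.9%, all genes 33.7%), 23 with the replicate number as a replicate block (34.8%, all genes 29.2%) and again 23 with a random block for the line (all genes 28.9%). Leaving out 1 array gave 0 to 11 (10 without Dll1-3 replicate 1, or 15.2% beside 7.28% of all genes, and 11 without Dll1-5 replicate 2, or 16.7% beside 7.15%). With the scanner ratios or the deposited value table, 2 genes were at least 2-fold higher on all arrays and 2 in Dll1-5, and the median was 0.0915 and 0.0872. Median centring gave 0 and 1 genes higher and lower on all arrays, 3 higher in Dll1-3, 0 higher and 2 lower in Dll1-5, and a median of 0.149. The mean of all passing probes gave 2 higher and 2 lower on all arrays and 2 and 2 in Dll1-5. Leaving out 1 array gave 1 to 2 higher on all arrays, 1 to 4 higher in Dll1-5 (4 without Dll1-5 replicate 2) and a median of 0.0123 to 0.0621. With arrays as samples 15 members differed between the lines. The scanner ratios gave -4.45 for Hspb8 and -2.61 for Hspa1a. The cause of these shifts was not tested. Dim mutant signals limit the size of low ratios.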
